A study of Tetranychus cinnabarinus with 8 samples.

Results

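Spider mites that were alive 48 h after spraying with curcumin were compared with those alive at 24 h, to describe which transcripts rose and fell with time under the compound. The comparison used the 4 curcumin libraries among the 8 of the series, 2 at each time, and gene models of 146 bp or more, of which 15289 were listed in at least 1 curcumin library out of 15764 models of any length listed in at least 1 of the 8. All mites were adult females of *Tetranychus cinnabarinus* from a susceptible laboratory strain kept on cowpea without pesticides, and no group carried a genetic change. They were given as 2-day-old in every group, an age that does not tell the 24 h from the 48 h mites. The curcumin groups received 2.64 mg/mL, the median lethal dose by the study's methods, in water with Tween 80 and acetone, and the 4 solvent libraries, 2 at 24 h and 2 at 48 h, received the same liquid without curcumin. Females on the leaves of several dishes were sprayed and pooled into a replicate, and only those still alive were collected, so the 48 h libraries hold those that had survived a further day. Time after spraying and the age of the mites cannot be told apart within the curcumin groups, and the same time step under solvent is therefore given beside the results. Since these are whole mites, fewer cells of a type and less RNA per cell cannot be told apart either.

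Curcumin is the yellow polyphenol of turmeric, and it kills mites of this genus. The carmine spider mite feeds on plant cells, and a young adult female turns much of its metabolism to eggs, for which vitellogenin, the precursor of yolk, is made. Arthropods under chemical stress are known to change transcripts for detoxifying enzymes and transporters, for the folding of proteins in the endoplasmic reticulum (ER), and for nerve and calcium signalling, where many acaricides have their targets. Only vitellogenin 1 (tetur39g00730) carried the name of that yolk precursor in the sources used here, and it was listed in all 8 libraries, at 1.59 to 23.9 RPKM (reads scaled to the length of the gene model and to the mapped reads of the library).

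Between 8269830 and 8617973 reads were estimated on gene models in the curcumin libraries, against 8033325 to 8617973 in the whole series. The 24 h libraries listed 14486 and 14511 gene models of 146 bp or more, and the 48 h libraries 14249 and 14502. The length limit was used because the mean read length differed between the curcumin libraries of the earlier and the later time. Models shorter than 146 bp numbered 24 and 1 in the 24 h libraries and 77 and 84 in the 48 h libraries. Libraries from different times differed by more than 2-fold in more gene models than replicates did, but the median difference did not always set them apart. Among 8881 gene models with enough reads, 73 differed more than 2-fold between the 24 h replicates and 109 between the 48 h replicates. Between times, 256 and 240 differed that much when the first 48 h library was set against each 24 h library, and 136 and 147 when the second was. The first 48 h library thus stood further from the 24 h libraries than the second did. The median absolute log2 difference was 0.15 between the 24 h replicates and 0.18 between the 48 h replicates, and the second 48 h library differed from the 24 h libraries by no more than from its own replicate, 0.17 and 0.18, against 0.24 and 0.22 for the first.

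Of 12193 gene models tested, 19 passed a false discovery rate (FDR) of 0.05 at 48 h against 24 h by the quasi-likelihood test of edgeR after Benjamini-Hochberg adjustment, which is 0.156% of them. Of the 19, 6 rose (0.0492%) and 13 fell (0.107%). At an FDR of 0.001 together with a log2 fold change beyond 1 in either direction, edgeR called 0 gene models (0.0%), while 1545 (12.7%) had an unadjusted p under 0.05, 758 higher (6.22%) and 787 lower (6.45%), and DESeq2 called 32. At an FDR of 0.05 DESeq2 called 190 gene models (1.56%), 74 higher (0.607%) and 116 lower (0.951%), and all 19 were among them. The adjusted p of the 19 lay between 0.0399 and 0.047, close to the threshold. With either curcumin library of 24 h left out 0 were called, with 1081 and 1062 gene models at an unadjusted p under 0.05, and likewise 0 with either solvent library of 24 h left out, with 1403 and 1402. With the first 48 h curcumin library left out 1 was called, with the second 1, and with the first or second 48 h solvent library 19 or 18. All 19 kept their direction in each of these fits. Since none of them overlapped between times under curcumin, leaving out a single library could hardly have reversed a direction. Without a filter on low counts edgeR called 0, and limma on log2(RPKM + 1) called 0, with 1673 and 1465 gene models at an unadjusted p under 0.05.

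Most transcripts changed little relative to the rest. The median log2 fold change was 0.00, the 5th and 95th percentiles were -0.72 and 0.66, and 95.2% of gene models lay within 1 of 0. The scaling of the libraries brings the median close to 0, so it cannot show a shift shared by most transcripts. There were 275 gene models at a log2 fold change of 1 or more and 313 at -1 or less, so that nearly all changes of this size missed the threshold. On reads scaled by the TMM factors of edgeR, which correct for library composition, both 48 h libraries lay above both 24 h libraries for 22.3% of gene models and below them for 23.0%, or 45.3% together. On the RPKM values, which carry no such correction, the shares were 18.2% and 27.3%. Either way a lack of overlap by itself sets few genes apart.

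**Figure D1:**
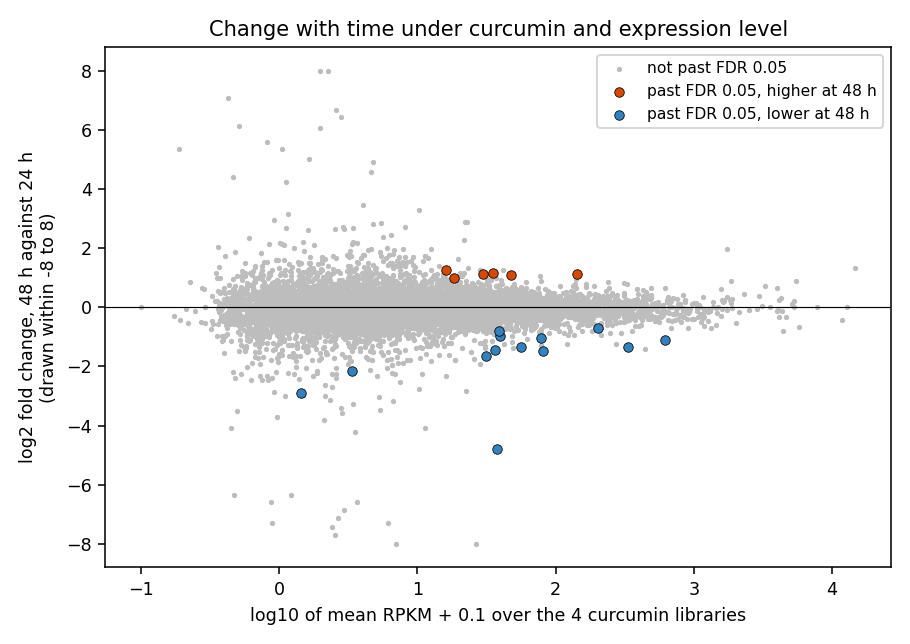
Change with time against expression level for the 12193 gene models tested. The horizontal axis is log10 of the mean RPKM plus 0.1 over the 4 curcumin libraries, the vertical axis is the log2 fold change at 48 h against 24 h, drawn within -8 to 8, and each point is 1 gene model. The 6 that rose (orange) lie near a log2 fold change of 1 and the 13 that fell (blue) reach down to -4.81, while most of the widest changes belong to low-level models that missed the threshold (grey).

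The 6 gene models that rose came to between 1.97-fold and 2.41-fold their 24 h level, and none of them has a name or description in the sources used here. tetur16g02670 had 9.41 and 9.95 RPKM at 24 h and 23.1 and 22.03 RPKM at 48 h, a 2.41-fold rise (log2 fold change 1.27, standard error (SE) 0.19, adjusted p = 0.047 by edgeR). tetur02g14370 had 20.2 and 24.2 RPKM at 24 h and 41.3 and 54.9 at 48 h (log2 fold change 1.16, SE 0.15, adjusted p = 0.0399 by edgeR). The lowest 48 h library of both lay well above the highest 24 h library. tetur16g03810 went from 17.6 and 20.7 RPKM to 34.9 and 45.8 RPKM (log2 fold change 1.12, SE 0.15). tetur23g01600, the most abundant of the 6, went from 102 and 82.6 RPKM to 197 and 189 RPKM (log2 fold change 1.12, SE 0.16). In these 2 as well the groups did not overlap. tetur11g01710 went from 28.7 and 33.7 RPKM to 67.9 and 59.9 RPKM (log2 fold change 1.09, SE 0.15). tetur11g02000, with the smallest rise of the 6, went from 12.8 and 12.5 RPKM to 21.9 and 26.2 RPKM (log2 fold change 0.98, SE 0.12). All 6 are models of ordinary length, from 816 to 1661 bp.

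The 13 gene models that fell included 2 with a description, guanylate kinase and stress-associated reticulum protein 1. Guanylate kinase (tetur07g05920, 336 bp), an enzyme that turns GMP into GDP at the cost of ATP, showed the largest fall of the 19. It had 64.8 and 81.0 RPKM at 24 h and 5.10 and 0 RPKM at 48 h, from 258 and 316 estimated reads against 20.4 and 0. Both 48 h libraries were thus far below both 24 h libraries, and the second 48 h library had no read of it. The fitted log2 fold change was -4.81 (SE 0.62, adjusted p = 0.0399 by edgeR), a 28.1-fold fall, and with single libraries left out it ranged from -11.2, without the first 48 h library, a value set against 0 reads that is no measure of size, to -3.78 without the second. Under solvent the same transcript had 58.1 and 35.5 RPKM at 24 h and 78.6 and 63.9 RPKM at 48 h, so the 48 h curcumin libraries were also below all 4 solvent libraries. It was the 1 gene model called without the first 48 h library, in a fit where the 48 h group was a single library with 0 reads of it and the spread came from the other groups. The primers that the study designed for this transcript are printed because they are the sequence at hand of the gene with the largest fall, each from 5′ to 3′ and in lower case throughout, since no part is singled out.

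guanylate kinase (tetur07g05920) forward primer: cttcacaagtcgtgccaagc
guanylate kinase (tetur07g05920) reverse primer: ttgtcaaaatgatggccaaa

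Stress-associated reticulum protein 1 (tetur28g01480, 195 bp), whose counterpart in mammals is a small membrane protein of the ER that protects newly made membrane proteins during stress, was the shortest of the 19. It had 462 and 505 RPKM at 24 h and 163 and 205 RPKM at 48 h (log2 fold change -1.35, SE 0.20, adjusted p = 0.0451 by edgeR), a 2.54-fold fall. Its solvent libraries had 391 and 399 RPKM at 24 h and 299 and 505 RPKM at 48 h, and the 48 h curcumin libraries lay below each of them. Because the model is short, it was left out where only models over 200 bp were tested.

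The other 11 gene models that fell have no description in the sources used here. tetur04g09567, the longest of the 19 at 4865 bp, was low at 24 h, with 2.75 and 2.01 RPKM, and lower at 48 h, with 0.239 and 0.375 RPKM (log2 fold change -2.90, SE 0.39, adjusted p = 0.04 by edgeR). tetur04g00720 went from 5.17 and 5.52 RPKM to 1.13 and 1.18 RPKM (log2 fold change -2.17, SE 0.26), and its replicates differed very little at either time. tetur36g00190 went from 52.5 and 43.7 RPKM to 11.6 and 18.02 RPKM (log2 fold change -1.65, SE 0.22). The groups of these 3 were far apart. tetur05g05100 went from 121 and 119 RPKM to 31.05 and 52.7 RPKM (log2 fold change -1.48, SE 0.20), and was the 1 gene model called without the second 48 h library (adjusted p = 0.0286 by edgeR), where the lone 48 h library was assumed to vary like the other groups. tetur05g04590 went from 60.5 and 46.8 RPKM to 16.5 and 21.7 RPKM (log2 fold change -1.44, SE 0.18). tetur533g00010 went from 88.1 and 74.5 RPKM to 25.2 and 37.6 RPKM (log2 fold change -1.33, SE 0.18). In each of tetur36g00190, tetur05g05100, tetur05g04590 and tetur533g00010 the first 48 h library was the lower of the 48 h replicates.

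The remaining 5 fell by a smaller factor. tetur437g00010, the most abundant of the 19, went from 862 and 846 RPKM to 350 and 422 RPKM (log2 fold change -1.10, SE 0.16). tetur26g01510 went from 101 and 112 RPKM to 44.0 and 55.8 RPKM (log2 fold change -1.04, SE 0.12, adjusted p = 0.0399 by edgeR). In both, every 48 h library lay far below the 24 h libraries. tetur05g05270 went from 53.1 and 51.7 RPKM to 23.1 and 29.0 RPKM (log2 fold change -0.96, SE 0.14). tetur32g02327 went from 49.4 and 50.2 RPKM to 25.7 and 29.9 RPKM (log2 fold change -0.79, SE 0.12), and tetur01g14690 from 259 and 248 RPKM to 150 and 150 RPKM (log2 fold change -0.71, SE 0.11, adjusted p = 0.047 by edgeR). These last were the smallest changes among the 19, in models whose replicates lay close together.

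**Figure D2:**
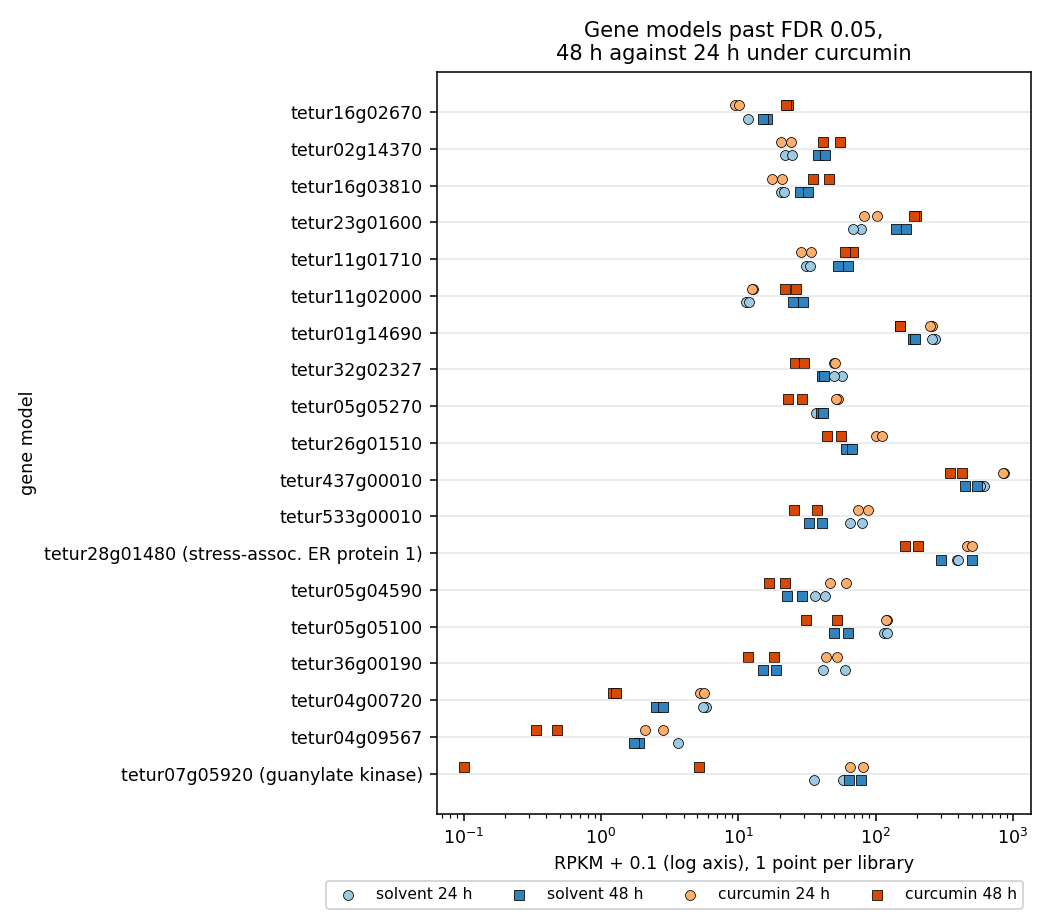
RPKM in every library for the 19 gene models past an FDR of 0.05, with 0.1 added and on a log axis. Each point is 1 library (circles 24 h, squares 48 h, orange curcumin, blue solvent), and models are ordered by the log2 fold change under curcumin. In all 19 the curcumin squares and circles do not overlap, as for 18.2% (higher) and 27.3% (lower) of all gene models tested on RPKM. In 13 of the 19, among them tetur11g02000 and tetur36g00190, the solvent points also lie apart in the same order.

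Several gene models just missed the threshold. The 9 with the lowest p among those higher at 48 h had adjusted p between 0.0601 and 0.0611 by edgeR. The largest values among them were in tetur12g01560, a short model of 270 bp, with 958 and 517 RPKM at 24 h and 3144 and 2393 RPKM at 48 h (log2 fold change 1.96, SE 0.34), and in tetur19g01070, with 2.25 and 1.43 RPKM against 6.405 and 5.77 RPKM (log2 fold change 1.79, SE 0.31). The solvent libraries of tetur12g01560 held 3116 and 1681 RPKM at 24 h and 1541 and 1790 RPKM at 48 h, so the 24 h curcumin libraries were its lowest. Among those lower, tetur11g04470 had 193 and 202 RPKM against 98.8 and 123 RPKM (log2 fold change -0.79, adjusted p = 0.0518 by edgeR) and tetur04g07450 had 63.6 and 56.0 RPKM against 23.0 and 26.1 RPKM (log2 fold change -1.23, adjusted p = 0.0534 by edgeR). Values for all 4 of these models in the 48 h libraries lay outside the range at 24 h. They were picked for a low p, and 45.3% of all gene models tested had no overlap on TMM-scaled reads. By DESeq2 all 4 passed, with adjusted p of 0.0040 for tetur12g01560, 0.0024 for tetur19g01070, 2.1e-05 for tetur11g04470 and 0.011 for tetur04g07450.

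The same time step under solvent shares no library with the curcumin comparison, although both were fitted with one estimate of spread. In solvent mites 23 gene models passed an FDR of 0.05 by edgeR (0.189%), 21 higher (0.172%) and 2 lower (0.0164%). Leaving out a 24 h solvent library gave 0 (the first) or 2 (the second), and leaving out a 48 h solvent library gave 8 (the first) or 29 (the second). With the first or second 24 h curcumin library left out the count was 14 or 10. Under curcumin the calls were mostly lower, and under solvent mostly higher. The lists shared 3 gene models, 15.8% of the curcumin list and 13.0% of the solvent list. Of the shared models tetur11g02000 had 11.3 and 11.8 RPKM in solvent mites at 24 h and 24.9 and 29.3 RPKM at 48 h, and tetur23g01600 had 77.9 and 68.2 RPKM against 167 and 141 RPKM. Both rose under either treatment. tetur36g00190, with 59.8 and 41.4 RPKM in solvent mites at 24 h and 15.01 and 18.8 RPKM at 48 h, fell under either.

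Of the 19, all 6 that rose and 9 of the 13 that fell had a log2 fold change of the same sign under solvent, or 78.9%, beside 56.4% of all gene models tested. Of the 19, 12 had an unadjusted p under 0.05 under solvent, beside 10.1% of all gene models. Both changes were tested with the same estimate of spread for a gene model, and the 19 were chosen for a low p. Their share under solvent can therefore be raised by the choice and is no independent evidence. Across gene models, the log2 fold changes under curcumin and under solvent had a Pearson's r of 0.10, and of 0.14 over the 8900 with a mean of at least 50 reads, as a description in which gene models are not independent replicates. A test of the difference between the changes called 0 gene models (0.0%) at an FDR of 0.05 by edgeR, with 992 (8.14%) at an unadjusted p under 0.05 and a lowest adjusted p of 0.126, and 55 by DESeq2 (0.451%). It called 2 when the second 48 h solvent library was left out and 1 when the first 48 h curcumin library was. Of the 19, 11 had an unadjusted p under 0.05 in that test. The test holds the same curcumin change on which the 19 were chosen. Counts among them are therefore raised by the choice and are no independent evidence. With all libraries, edgeR called the difference for 0 of the 19 and DESeq2 for 5, namely stress-associated reticulum protein 1, tetur04g09567, tetur05g05270, tetur26g01510 and tetur437g00010. The 1 called without the first 48 h curcumin library was guanylate kinase, again against a single library with 0 reads of it.

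**Figure D3:**
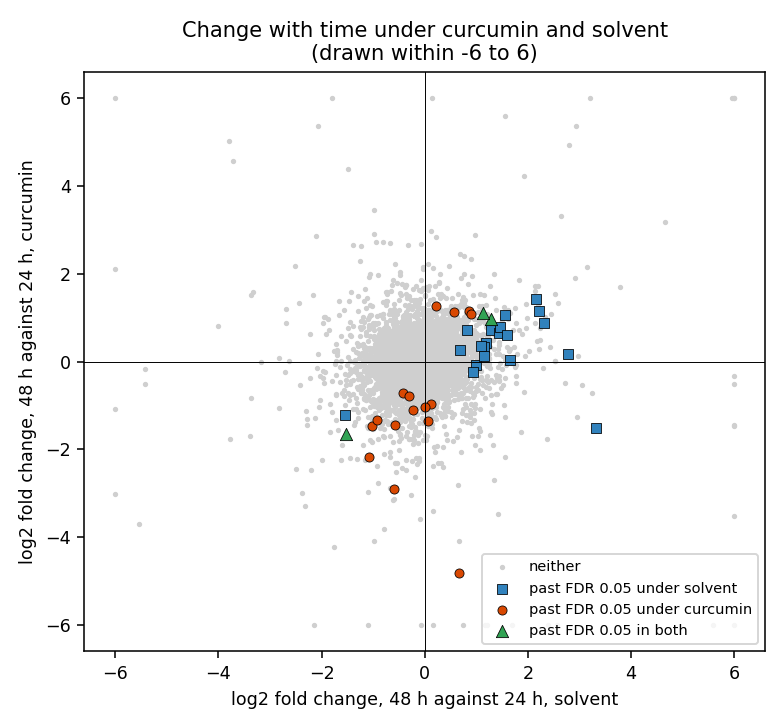
Log2 fold change at 48 h against 24 h under solvent (horizontal) and under curcumin (vertical), both drawn within -6 to 6, 1 point per gene model tested. Orange circles passed an FDR of 0.05 under curcumin, blue squares under solvent and the 3 green triangles under both; guanylate kinase is the low orange point at -4.81 and vitellogenin 1 the blue square at 3.32 on the horizontal axis.

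Gene models with the lowest p for that difference are given as values. Vitellogenin 1 had 6.21 and 9.66 RPKM in curcumin mites at 24 h and 2.69 and 2.69 RPKM at 48 h (log2 fold change -1.51, SE 0.41, adjusted p = 0.183 by edgeR and 0.016 by DESeq2). In solvent mites it had 2.02 and 1.59 RPKM at 24 h and 23.9 and 10.9 RPKM at 48 h, a rise with a log2 fold change of 3.32 (adjusted p = 0.0194 by edgeR). The values are those of this model of 1298 bp and not of all yolk precursor RNA, which could not be picked out without an annotation. The model was lower in both 48 h curcumin libraries than in both 24 h ones. Under solvent it was higher in both 48 h libraries than in both 24 h ones. The difference between these changes was -4.84 on the log2 scale, with an adjusted p of 0.126 by edgeR. tetur17g03540, a model of 159 bp, had 425 and 441 RPKM in curcumin mites at 24 h and 345 and 360 RPKM at 48 h, against 300 and 267 RPKM and then 508 and 540 RPKM in solvent mites. tetur02g15186 had 83.0 and 87.0 RPKM against 48.1 and 48.9 RPKM in curcumin mites (log2 fold change -0.76, adjusted p = 0.0601 by edgeR and 0.026 by DESeq2), while solvent mites had 66.7 and 66.4 RPKM and then 81.0 and 91.9 RPKM. In the opposite sense, tetur54g00060 had 1.60 and 1.96 RPKM in curcumin mites at 24 h and 7.15 and 6.47 RPKM at 48 h, against 9.65 and 6.96 RPKM and then 3.53 and 3.84 RPKM in solvent mites. The adjusted p of these differences was 0.222 for tetur54g00060, 0.208 for tetur02g15186 and 0.126 for tetur17g03540 by edgeR.

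The study's tables of candidates hold 22 gene models that resemble targets of acaricides or take part in detoxification and metabolism, and it chose them on these same libraries for a difference between curcumin and solvent, so their counts are no independent evidence. Of the 22, 20 are 146 bp or longer and 19 could be tested. None of those tested rose, 2 fell (guanylate kinase and stress-associated reticulum protein 1), 8 had a log2 fold change above 0 and 11 below, and their median was -0.17. Over all 12193 gene models tested 13 fell (0.107%), 6135 lay above 0 and 6057 below, and the median was 0.00.

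Among the candidates for nerve signalling, the transcript described as similar to gamma-aminobutyric acid (tetur05g08080, 222 bp), named after the main inhibitory transmitter of arthropods, was the lowest of those that missed the threshold and had reads at both times. It had 24.9 and 54.0 RPKM at 24 h and 3.69 and 7.10 RPKM at 48 h (log2 fold change -2.82, SE 0.53, adjusted p = 0.0732 by edgeR, and 0.0002 by DESeq2). All 4 solvent libraries, at 14.4 and 16.5 RPKM and then 13.8 and 33.1 RPKM, lay above the 48 h curcumin libraries. The neuromedin-K receptor (tetur453g00010), in mammals a receptor of the peptide neurokinin B, had 5.09 and 4.46 RPKM at 24 h and 0.816 and 2.09 RPKM at 48 h (adjusted p = 0.425 by edgeR), and was missing from the lists of all 4 solvent libraries. The precursor of SIFa (tetur22g02010), a neuropeptide of arthropods, had 9.46 and 7.33 RPKM against 0.119 and 5.17 RPKM (adjusted p = 0.502 by edgeR). All 3 lay lower at 48 h in both libraries. The hyperpolarization-activated ion channel (tetur25g00970), which carries a cation current in excitable cells, had 7.01 and 8.88 RPKM against 15.5 and 8.42 RPKM, and its groups overlapped. The primers designed for tetur05g08080 are shown as the sequences at hand of this nerve signalling candidate.

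gamma-aminobutyric acid-like (tetur05g08080) forward primer: caacgatttggaatgggaaa
gamma-aminobutyric acid-like (tetur05g08080) reverse primer: gttttgctggtggtgcaata

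The candidates for calcium and phospholipid signalling gave no call. Calmodulin (tetur04g01900), the calcium-binding regulator of many enzymes, had 0 and 21.4 RPKM at 24 h and 14.5 and 3.55 RPKM at 48 h, so its replicates differed more than its groups. Phospholipase C (tetur05g03410), which splits a membrane lipid into second messengers, had 11.8 and 10.0 RPKM against 22.2 and 14.6 RPKM (log2 fold change 0.81, SE 0.31, adjusted p = 0.327 by edgeR). Phospholipase A2 (tetur05g07400), which frees fatty acids from phospholipids, had 2.05 and 7.0 RPKM against 0 and 0.911 RPKM and was too low to be tested. Ras GTPase (tetur08g03710), a switch protein of growth signalling, had 19.1 and 5.39 estimated reads at 24 h and 0 at 48 h in both libraries. With 3 reads over the 48 h group as the floor, it was at least 8.17-fold lower (adjusted p = 0.269 by edgeR). RabGAP/TBC (tetur04g07610), of a family that switches off Rab GTPases of vesicle traffic, and the Ser/Thr protein kinase (tetur10g04980) had log2 fold changes of 0.44 and 0.05, with SE of 0.43 and 0.25.

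Among candidates for detoxification and metabolism, the ABC transporter (tetur19g01690), of a family that exports compounds with ATP, had 1.75 and 3.27 RPKM at 24 h and 3.15 and 7.99 RPKM at 48 h, and overlapped between times. Cystatin (tetur09g03650), an inhibitor of cysteine proteases, had 843 and 848 RPKM at 24 h and 382 and 838 RPKM at 48 h, and on TMM-scaled reads the groups overlapped. Topoisomerase (tetur10g02970), which relaxes coiled DNA, had 8.36 and 2.03 RPKM against 17.8 and 16.7 RPKM (log2 fold change 1.75, SE 0.52, adjusted p = 0.218 by edgeR), with no overlap. Another gene model had the same length and the same reads in every library, so these values cannot be assigned to tetur10g02970 alone. Glycerol-3-phosphate dehydrogenase (tetur23g01300), an enzyme between sugar and fat metabolism, had 19.0 and 15.4 RPKM against 21.6 and 7.86 RPKM. The PMP1-like transcript (tetur14g03800) and the scaffold protein (tetur02g05380) had log2 fold changes of 0.97 and -0.33, each with a larger SE, 1.16 and 1.09.

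The study's 7 genes for protein processing in the ER were all tested, and none passed the threshold by edgeR. The study drew them from genes it had called on these same libraries, so their counts are no independent evidence. Of the 7, 1 had a log2 fold change above 0 and 6 below, with a median of -0.28, beside 6135 above, 6057 below and a median of 0.00 over all gene models tested. Calnexin (tetur611g00020), a chaperone that holds newly made glycoproteins, was the one above 0, and it varied widely, with 0.139 and 11.04 RPKM at 24 h and 55.1 and 24.2 RPKM at 48 h. Its log2 fold change of 2.87 (SE 1.99) ranged from 1.90 to 7.37 with single libraries left out. tetur03g00110 had 23.5 and 23.4 RPKM at 24 h and 10.1 and 12.6 RPKM at 48 h (log2 fold change -1.003, SE 0.21, adjusted p = 0.098 by edgeR and 0.0058 by DESeq2), and tetur03g00120 had 25.8 and 20.8 RPKM against 15.8 and 17.8 RPKM (log2 fold change -0.42, SE 0.16). Neither overlapped between times. The other 4, tetur03g00200, tetur03g00210, tetur08g07940 and tetur32g02000, had log2 fold changes from -0.56 to -0.19. The unnamed members other than tetur32g02000 are 802 to 893 bp long, and whether reads were shared among related copies was not tested. The 17 genes that the study lists at both times for a difference from solvent were likewise chosen on these libraries. Their median was -0.43 over 16 tested, with 0 called.

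**Figure D4:**
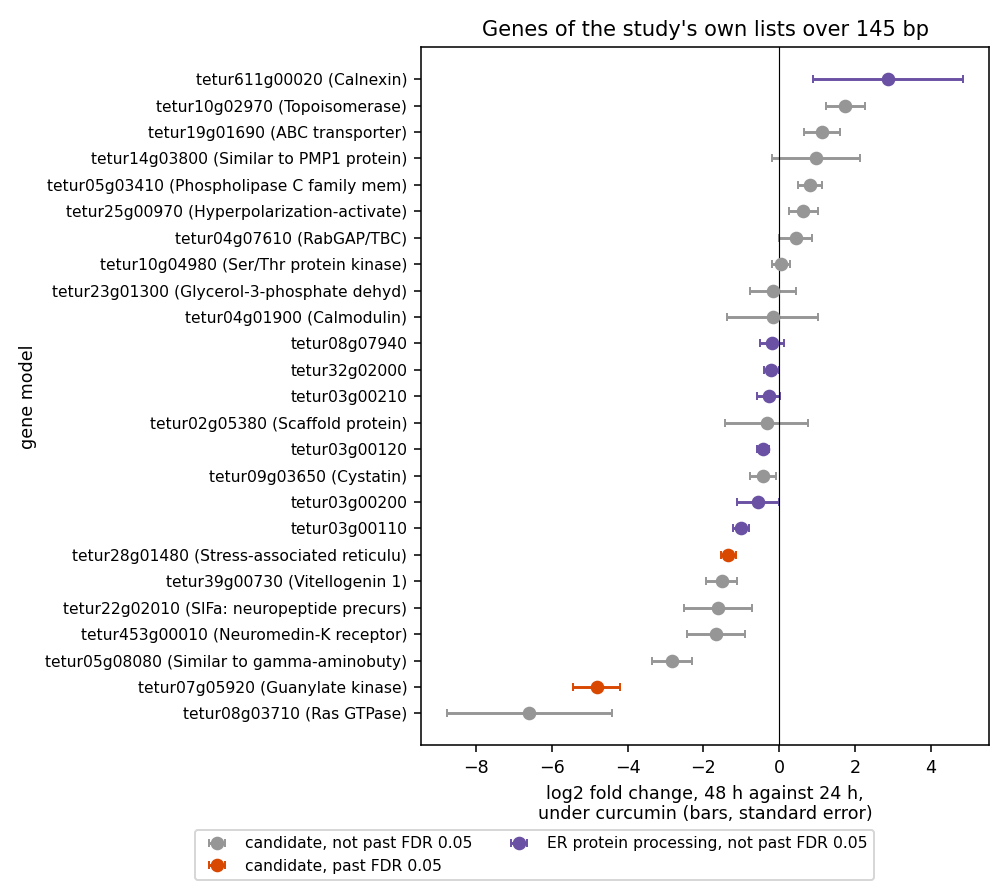
Log2 fold change at 48 h against 24 h under curcumin for the tested genes of the study's candidate and ER lists, with bars of 1 standard error. The 2 orange points, stress-associated reticulum protein 1 and guanylate kinase, passed an FDR of 0.05, and the grey (candidate) and purple (ER) points did not; the lowest point, Ras GTPase, is a fitted value against 0 reads at 48 h and is no measure of its size.

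Some gene models had 0 reads in both libraries of a time and at least 5 in each library of the other. There were 5 of these that were higher at 48 h, of which 4 could be tested, and 14 that were lower, of which 9 could, and none of those tested passed the threshold. Of those higher, tetur01g10050 had 69.8 and 25.8 estimated reads at 48 h and was at least 31.8-fold higher, with the floor of 3 reads over the group. It also had 55.0 reads in 1 solvent library at 48 h and 0 in the other 3. Of those lower, tetur06g06661 had 35.7 and 81.1 reads at 24 h and was at least 39.0-fold lower (adjusted p = 0.0568 by edgeR), while its solvent libraries held 0 reads in 3 and 0.587 in 1. tetur437g00020 had 18.8 and 33.2 reads at 24 h and was at least 17.4-fold lower. These 3 are among those with the largest bounds, a choice made once the values were known.

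None of the 20 most abundant gene models under curcumin passed the threshold. The first of them, tetur18g03020, a model of 295 bp, had 7913 and 9511 RPKM at 24 h and 26114 and 15658 RPKM at 48 h (log2 fold change 1.32, SE 0.30, adjusted p = 0.117 by edgeR), and its solvent libraries had 11433 to 18469 RPKM. tetur05g09110 had 7071 and 7255 RPKM at 24 h and 3994 and 4776 RPKM at 48 h (log2 fold change -0.66, adjusted p = 0.232 by edgeR). Neither overlapped between times. tetur39g00810, of 5481 bp, had 5371 and 5353 RPKM against 5145 and 5319 RPKM, a log2 fold change of 0.02. The 3 were picked with their values known.

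The shortest gene models tested had a lower median change and varied more than longer ones. The 239 models of 146 to 200 bp had a median log2 fold change of -0.15, and 42.3% of them were above 0. From 201 bp upwards the medians lay between -0.04 and 0.05. The quartiles were -0.69 and 0.48 at 146 to 200 bp against -0.12 and 0.17 over 2000 bp. Of the 19 calls, 1 lay in the shortest class and 10 were over 1000 bp. Of the 12193 models tested, 239 lay in the shortest class. A further 4820 were over 1000 and up to 2000 bp, with 9 of the calls, and 3285 were over 2000 bp, with 1. The part of read length in the changes of short models was not tested. Without a length limit edgeR called 52 gene models, and with only models over 300 bp 50 and over 500 bp 67, of which 19, 18 and 16 were among the 19.

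**Figure D5:**
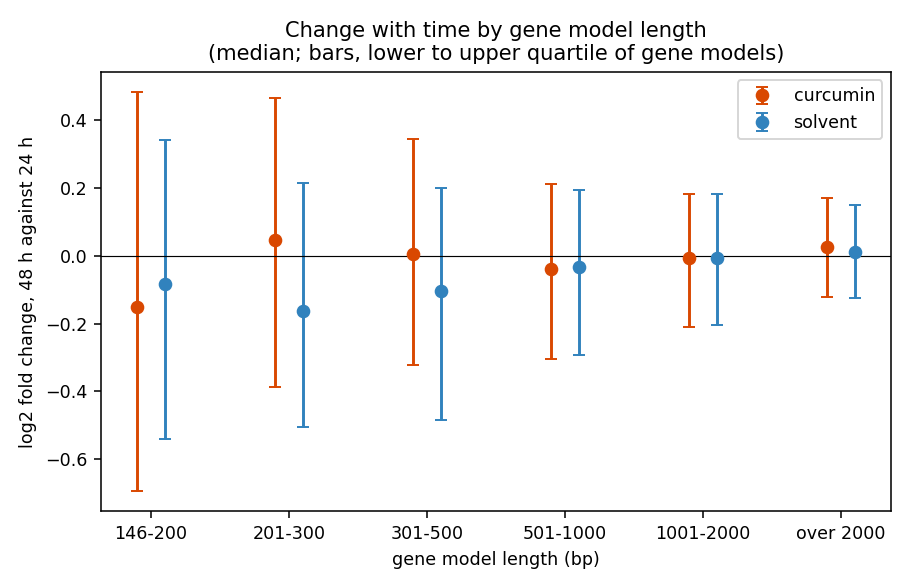
Median log2 fold change at 48 h against 24 h by length of the gene model in bp, with bars from the lower to the upper quartile of gene models, under curcumin (orange) and under solvent (blue). The medians lie between -0.16 and 0.05 in every class and both treatments, and the bars narrow from the shortest class to the longest.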

How the data were processed

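RNA-Seq was run on polyadenylated RNA of whole adult female mites, with 2 biological replicates per group. By the methods, the authors mapped single-end Ion Proton reads to the genome of the related *T. urticae* with T-Map, while the labels name an Illumina protocol for the libraries. The authors deposited, for each gene model and library, an estimated count of reads, which need not be whole and is not scaled, and the RPKM, which they normalized for length and depth. The sources used here do not name the tool that estimated the reads, and models at 0 are missing from a library's list, so a missing model was set to 0. Depth was 8033325 to 8617973 estimated reads per library, and floors of 3 reads over a group cover counting error only.

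Models shorter than 146 bp were left out. The estimated counts were rounded, filtered by filterByExpr, scaled by TMM and fitted by the robust quasi-likelihood method of edgeR 4.0.16 (R 4.3.3), with all 8 libraries in 4 groups, 12193 models, 4 residual degrees of freedom and a common biological coefficient of variation of 0.140. P-values were adjusted over all models tested by the Benjamini-Hochberg method, and standard errors were worked out from the F statistic. The code was also run on simulated counts with a single spread for all gene models. That run does not measure how the fit fares on these libraries. RPKM values are given per library, and fold changes come from the fit. Pairs of libraries were compared on models with at least 50 reads. Alternatives were DESeq2 1.42.0, library size only, no filter, the 4 libraries alone, a block for the replicate number, limma 3.58.1 with pseudocounts of 1 and 0.1 added to the RPKM before log2, for models of mean RPKM 0.5 or more or, with 1, for all, other length limits, removal of the length trend, equal models counted once (21 groups, 60 models) and each library left out. The rest used pandas 2.3.3, matplotlib 3.10.9 and numpy 2.4.6 in Python 3.11.15.

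The members and lists were chosen with earlier results of these data known. Named genes are up to 15 per direction past an FDR of 0.05 by size, filled up with those of lowest p that missed it, up to 5 per direction with the lowest p for the difference from solvent, and the study's candidate and ER lists. Gene names come from the study's tables, and 31 of the models tested had one. Lists by keyword could not be applied, since no annotation was used here. Genome positions and the study's qRT-PCR are not analysed here.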

Additional observations from a re-analysis of the deposited data

Results flagged for a closer look

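For 13 of the 61 named gene models, curcumin and solvent libraries moved in opposite directions from 24 h to 48 h. On TMM-scaled reads, neither treatment had any overlap between times. Most of the 13 were named for a low p of the difference between these changes. Several others come from the study's lists, which were chosen on these same libraries. The count is therefore raised by the choice. The difference between the changes was tested by edgeR, where 0 gene models passed an FDR of 0.05. Over all gene models tested 821 (6.73%) showed such opposite moves. The difference in log2 fold change, curcumin minus solvent, was -5.47 for guanylate kinase (tetur07g05920) and -4.84 for vitellogenin 1 (tetur39g00730). It was -3.49 for the SIFa precursor (tetur22g02010), 1.81 for phospholipase C (tetur05g03410) and -0.61 for tetur32g02000 of the ER list. Among models with no description it was 3.02 for tetur54g00060, 3.002 for tetur36g00010, 1.69 for tetur16g00070 and 1.12 for tetur13g03240. It was -1.18 for both tetur17g03540 and tetur02g15186, -1.07 for tetur05g05270 and -1.03 for tetur01g07670.

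Gene models shorter than 146 bp, which no comparison used, numbered 77 and 84 in the curcumin libraries at 48 h, with 3937 and 5612 estimated reads. They numbered 24 and 1 in those at 24 h and 20 to 29 in the solvent libraries.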

How the results depend on the processing

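The 19 gene models past an FDR of 0.05 under curcumin had no overlap between times, so a change of sign was hardly possible. All 19 kept their direction under all 22 alternatives that tested them. Their count moved to 190 by DESeq2 (74 higher, 116 lower), to 38 with the replicate number as a block (13 and 25), and to 52 without a length limit (21 and 31), 50 over 300 bp (18 and 32) and 67 over 500 bp (28 and 39). It was 0 without a filter on low counts and by limma in all 3 forms, on log2(RPKM + 1), on log2(RPKM + 0.1) and without the RPKM filter, so that 0 rose and 0 fell. With single libraries left out it lay between 0 and 19, with 0 to 5 higher and 0 to 14 lower. DESeq2 called 32 at the thresholds of the study. Libraries with equal replicate numbers did not deviate together in every pair of groups (r = -0.09 between the curcumin times, and -0.13, 0.08, 0.16, 0.27 and 0.32 between the others), and no label ties the numbers to a shared batch, so they were not taken to pair the samples. With the block all 19 stayed called, and 6 of the 41 other named genes were called too, among them tetur05g08080, tetur12g01560, tetur11g04470 and tetur04g07450. DESeq2 called 18 of the 41.

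The solvent count of 23 moved to 125 by DESeq2, 13 without a filter, 10 with its own 4 libraries, 1, 1 and 2 by limma, 37 over 300 bp and 49 over 500 bp, and to between 0 and 29 with libraries left out. The count for the difference, 0, became 55 by DESeq2, 1 over 500 bp and 0 to 2 with libraries left out.

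Among named genes that passed no threshold, some changed sign. With single libraries left out the log2 fold change ranged from -0.017 to 1.10 for tetur04g07610, -0.044 to 0.13 for tetur10g04980, -1.07 to 0.0040 for tetur09g03650, -1.12 to 0.41 for tetur23g01300 and -1.07 to 1.28 for tetur02g05380. It ranged from -7.34 to 1.97 for tetur14g03800, -1.52 to 8.13 for calmodulin (tetur04g01900), -1.84 to 0.086 for tetur03g00200, -0.60 to 0.15 for tetur03g00210 and -0.54 to 0.26 for tetur08g07940. By limma on log2(RPKM + 1), with or without the filter, tetur10g04980 came to -0.0057, tetur14g03800 to -0.47 and tetur04g01900 to 0.83, and on log2(RPKM + 0.1) to -0.0059, -1.94 and 2.31. The cause was not tested.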
